A study of Mus musculus with 12 samples.

Results

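The DNA replication and G1/S genes are 47 genes of origin licensing, the replicative helicase, the DNA polymerases, nucleotide supply and their control, and all 47 were measured among the 19938 genes with a value. They were chosen by name for their function, and 1 value per gene was taken, that of the probe set with 1 gene symbol and the highest mean level. Expression was measured on 12 Affymetrix arrays of NIH3T3, an immortalised mouse fibroblast line grown with 10% fetal bovine serum, 48 h after transfection. The 4 groups of 3 arrays each were sirUBF oligo 1 and sirUBF oligo 2, which are 2 different siRNAs against UBF used at 40 nM, the control siRNA sirEGFP at 40 nM, and Mock, which received the transfection reagent without siRNA. UBF, encoded by Ubtf, is a transcription factor of the ribosomal RNA genes. The 3 arrays of a group are called biological replicates in the design text, but nothing says how separately the cultures were kept, so the p-values measure the spread between these arrays. All cells are of 1 line and were measured at 1 time, and expression in the whole culture was read, so fewer cells in S phase and less RNA per cell cannot be told apart.

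Replication starts when the origin recognition complex (ORC), Cdc6 and Cdt1 load the MCM helicase onto origins in G1, a step known as licensing that geminin blocks later in the cycle. At the start of S phase Mcm10, Cdc45 and the GINS complex turn the loaded MCM into an active helicase, DNA polymerase alpha with primase lays down primers, and polymerases delta and epsilon extend them on the sliding clamp PCNA. Many of these genes are known targets of E2F transcription factors, which activate them as cells pass from G1 into S phase.

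Cells that received oligo 1 had lower levels of most of these genes than cells that received oligo 2, although both are siRNAs against the same transcript. In limma's test of oligo 1 against oligo 2, 19 of the 47 fell and 0 rose at an adjusted p under 0.05, where 2.3% of all genes were called lower and 1.37% higher. The median log2 difference of the 47, oligo 1 minus oligo 2, was -0.53, against 0.030 over all genes, and 42 of the 47 lay below 0 against 43.3% of all genes. The 19 that fell were Orc3, Cdc6, Gmnn, Mcm2, Mcm4, Mcm6, Mcm10, Cdc45, Gins1, Gins3, Pola1, Prim2, Pold3, Rfc3, Rrm1, Rrm2, Tyms, Fen1 and Dtl. Fell here means lower with oligo 1 than with oligo 2. Of the 19, 9 were also called lower with oligo 1 against both sirEGFP and Mock. Another 6 (Orc3, Mcm2, Mcm10, Cdc45, Rrm2 and Fen1) were called lower with oligo 1 against neither control. On the arrays themselves, 29 of the 47 had all 3 oligo 1 values below all 3 oligo 2 values, an order found in 9.19% of all genes, and 0 had the opposite order, found in 9.14%. For 20 of the 47 all 3 oligo 1 values lay below all 9 other arrays, as in 2.02% of all genes. The group mean was lowest with oligo 1 for 41 of the 47, with oligo 2 for 5 (Orc1, Orc4, Orc5, Rpa1 and Tk1) and with sirEGFP for 1 (Cdt1). A second probe set of Tk1, not used here, had its lowest mean with oligo 1, at -0.0995 from oligo 2.

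The mean level of the 47 genes, with each gene set relative to its own mean over the 12 arrays, was -0.20, -0.46 and -0.34 on the oligo 1 arrays, 0.24, 0.029 and 0.091 on the oligo 2 arrays, 0.21, 0.068 and -0.026 with sirEGFP and 0.13, 0.13 and 0.13 in Mock on the log2 scale. Every oligo 1 array thus lay below every other array. The oligo 2, sirEGFP and Mock arrays overlapped.

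**Figure D1:**
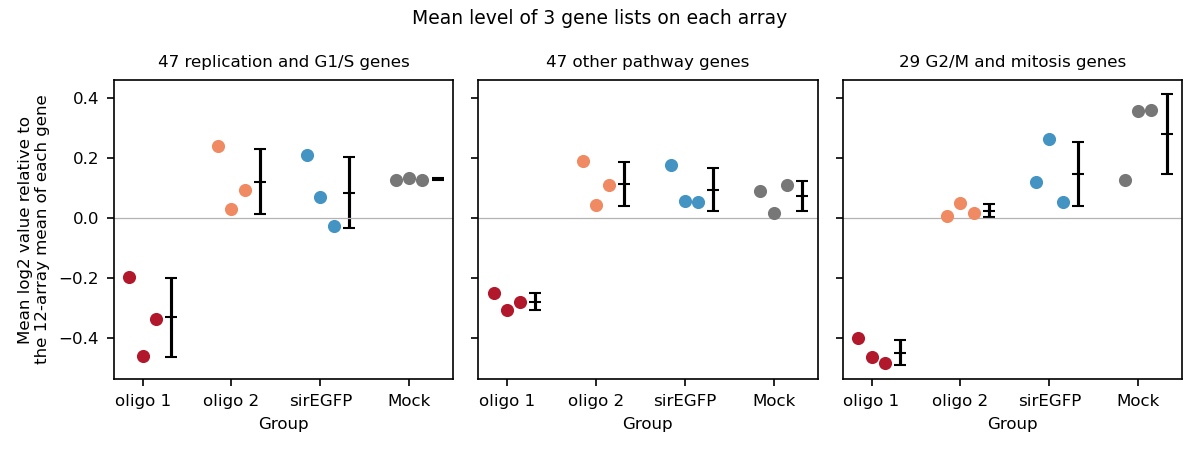
Mean log2 level of the 47 replication and G1/S genes, of 47 other genes of the same pathway and of 29 G2/M and mitosis genes on each array (points), each gene relative to its mean over the 12 arrays, with the group mean and SD (bars, n = 3) beside the points. The oligo 1 arrays lie lowest in all 3 panels, between -0.46 and -0.20 for the replication and G1/S genes.

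Ubtf itself stood at 7.998, 7.74 and 7.64 with oligo 1, 7.90, 7.83 and 7.49 with oligo 2, 8.68, 8.31 and 8.04 with sirEGFP and 8.54, 8.63 and 8.41 in Mock. Its log2 difference between the siRNAs was 0.052 ± 0.17 (SE, n = 3 arrays each), with a 95% interval of -0.30 to 0.40 (limma adjusted p = 0.942). Against sirEGFP it was -0.55 with oligo 1 and -0.61 with oligo 2, of which neither passed the test (adjusted p = 0.107 and 0.0771). Against Mock both siRNAs passed, with Ubtf at -0.74 in oligo 1 cells (adjusted p = 0.0252) and at -0.79 in oligo 2 cells (0.0146).

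The arrays carried the markers of their label. All 11 fibroblast markers, among them Vim, Sparc and Col1a2, lay above the median gene, and 1 each of 5 epithelial (Krt8), 5 macrophage (Cd68) and 4 endothelial markers (Cdh5) did, while Epcam, Ptprc and Pecam1 lay below it. The mean level of the fibroblast markers was 9.41 with oligo 1, 9.49 with oligo 2, 9.13 with sirEGFP and 9.32 in Mock, that of the epithelial markers 4.93, 4.76, 4.89 and 4.84 in the same groups, that of the macrophage markers 4.76, 4.64, 4.52 and 4.57, and that of the endothelial markers 4.82, 5.05, 4.89 and 4.90. Means of single markers went opposite ways between the siRNAs, with Csf1r at a mean of 5.73 with oligo 1 against 4.93 with oligo 2, Cd68 at 6.43 against 7.01 and Cdh5 at 5.22 against 6.18. The part of other cells in the results was not tested. Array medians over all probe sets lay between 5.38 and 5.54. The main axis of spread within groups held 41.5% of the variance within groups, with oligo 1 array 2 (score 28.5) at one end and oligo 1 array 1 (-26.8) and sirEGFP array 1 (-23.5) at the other, so 2 of the 3 oligo 1 arrays stood apart in opposite directions. The counts are therefore also given without these 3 outlying arrays, which leaves oligo 1 with array 3 alone, assumed to vary like the other groups.

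Without the 3 outlying arrays the median of the 47 genes in oligo 1 against oligo 2 was -0.56, and all 19 members called on the full set still lay below 0, between -1.20 and -0.48. The calls themselves dropped to 4, which were Gmnn, Mcm2, Mcm10 and Dtl. Fitting only the 6 arrays compared gave 11 calls, and weighting each array by its spread gave 32 lower and 1 higher. In these fits 89.4% and 87.2% of the 47 lay below 0, with medians over all genes of 0.030 and 0.0038. The share of all genes called is not set beside the counts of the alternatives. Leaving out single arrays moved the count of 19 to 12 without oligo 1 array 3, 10 without oligo 2 array 1 and 12 without oligo 2 array 3. With the replicate number as a block 25 members fell, the 19 and Mcm3, Mcm5, Mcm7, Rfc4, Rpa2 and Uhrf1. Calls of 9 members were kept whichever single array was left out: Cdc6, Gmnn, Mcm4, Mcm6, Rfc3, Rrm1, Rrm2, Tyms and Dtl.

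**Figure D2:**
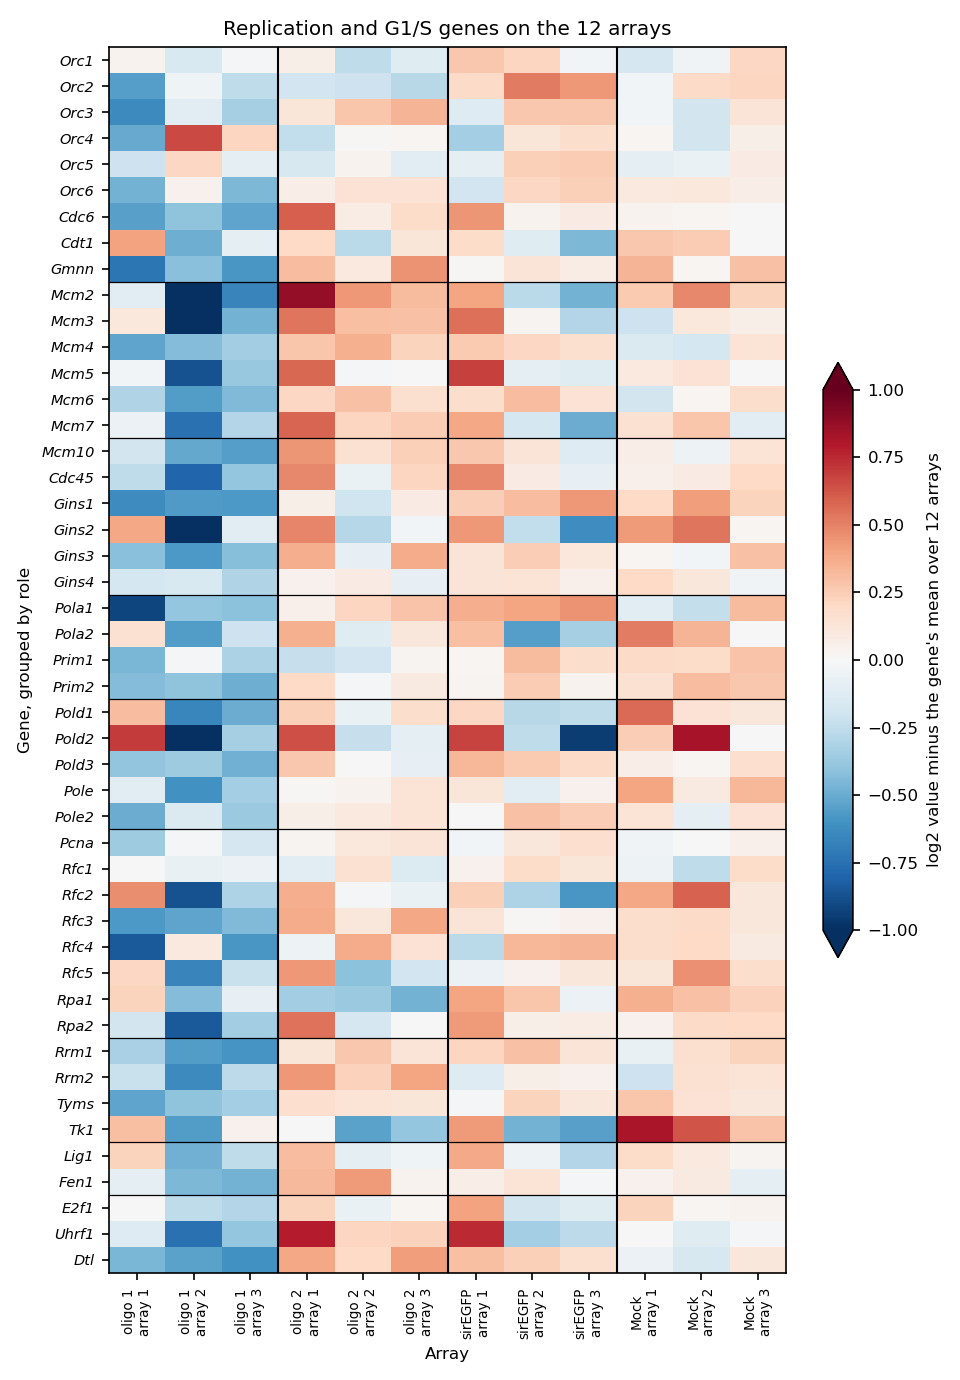
Log2 value of each of the 47 genes (rows, grouped by role with thin lines between roles) on the 12 arrays (columns), minus the gene's mean over the 12 arrays, with the colour scale ending at -1 and 1. Most rows are blue on the 3 oligo 1 arrays, while rows such as Pold2, Gins2 and Rfc2 are red on oligo 1 array 1 and blue on oligo 1 array 2.

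Promoters of 3 of these genes are shown because members of every role fell in oligo 1 against oligo 2 and many are known E2F targets. They belong to the members with the lowest log2 difference between the siRNAs that had an entry in the promoter table from RefSeq (GRCm38.p6), which are Mcm2 (chr6:88898731-88899030, minus strand), Dtl (chr1:191575495-191575794, minus strand) and Mcm3 (chr1:20820263-20820562, minus strand). Each runs 5′ to 3′ from 250 bases before the start of the gene to 50 after it, and capitals mark words of the E2F consensus and of the CCAAT box on either strand.
Mcm2: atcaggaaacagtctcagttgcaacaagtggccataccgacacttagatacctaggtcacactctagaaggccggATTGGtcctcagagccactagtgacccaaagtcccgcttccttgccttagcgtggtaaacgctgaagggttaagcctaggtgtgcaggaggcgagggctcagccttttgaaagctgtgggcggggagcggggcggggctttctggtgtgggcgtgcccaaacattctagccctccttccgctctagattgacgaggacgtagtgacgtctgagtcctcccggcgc
Dtl: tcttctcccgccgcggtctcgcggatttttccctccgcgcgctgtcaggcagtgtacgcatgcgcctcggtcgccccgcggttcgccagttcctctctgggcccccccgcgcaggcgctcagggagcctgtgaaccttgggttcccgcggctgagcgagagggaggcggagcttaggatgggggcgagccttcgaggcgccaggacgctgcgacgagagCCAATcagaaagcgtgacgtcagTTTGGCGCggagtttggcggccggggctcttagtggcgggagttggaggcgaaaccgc
Mcm3: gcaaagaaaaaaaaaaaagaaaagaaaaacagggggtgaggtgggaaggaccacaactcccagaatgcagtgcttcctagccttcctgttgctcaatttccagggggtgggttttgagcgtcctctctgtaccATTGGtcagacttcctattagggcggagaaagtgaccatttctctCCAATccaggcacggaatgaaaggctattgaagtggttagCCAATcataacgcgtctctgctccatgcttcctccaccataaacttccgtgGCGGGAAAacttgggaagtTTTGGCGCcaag

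The Dtl promoter held 1 E2F word, TTTGGCGC, which began at position -8 relative to the start, and a CCAAT box at -31. The Mcm3 promoter held 2 E2F words, both after the start, at 19 and 38, and 3 CCAAT boxes. The Mcm2 promoter held a CCAAT box at -175 and, not capitalised, the CHR element TTTGAA at -70, and none of the E2F words in this window. The words searched on both strands were TTTCCCGC, TTTCGCGC, TTTGCCGC and TTTGGCGC for E2F, CCAAT, and TTTGAA for the CHR element, and none of them overlaps another in the sequences shown. Of the 48 promoters listed for 39 of the 47 genes, 17 held an E2F word (35.4%), against 2.26% of all 32851 promoters in the table and 2.99% of the 19177 promoters of genes tested on the arrays. A CCAAT box was found in 27 of the 48 (56.2%, against 37.4% of all promoters) and the CHR element in 5 (10.4%, against 17.9%). In oligo 1 against oligo 2, 8 of the 17 genes with an E2F word fell, with a median log2 difference of -0.65, and 7 of the 22 genes with a promoter entry and no E2F word, with a median of -0.35. That difference between the 2 sets was not tested.

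In the accounts of single genes that follow, values are log2 levels on arrays 1, 2 and 3 of each group, and each change is a difference of log2 group means with limma's standard error (SE, n = 3 arrays each) and adjusted p. Each array was also left out in turn, and where that ended a call the array is named with the adjusted p reached without it.

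Among the licensing genes 3 of 9 fell in oligo 1 against oligo 2, at a group median of -0.076, so the members of this step divided. Gmnn encodes geminin, which binds Cdt1 and blocks relicensing, and stood at 7.85, 8.16 and 7.99 with oligo 1, 8.89, 8.67 and 9.03 with oligo 2, 8.59, 8.71 and 8.66 with sirEGFP and 8.92, 8.60 and 8.87 in Mock. All 3 oligo 1 values were below all 9 others. Gmnn fell by 0.86 on the log2 scale, or by 44.9%, in oligo 1 against oligo 2 (SE 0.13, adjusted p = 0.00193). Cdc6, the ATPase that joins ORC to load MCM, stood at 7.02, 7.16 and 7.04 with oligo 1, 8.16, 7.64 and 7.75 with oligo 2, 8.004, 7.60 and 7.65 with sirEGFP and 7.60, 7.58 and 7.57 in Mock. Oligo 1 again held the 3 lowest values, and the difference was -0.78 ± 0.15 (adjusted p = 0.00745). Orc3, a core subunit of ORC, stood at 8.93, 9.45 and 9.24 with oligo 1, 9.69, 9.84 and 9.90 with oligo 2, 9.44, 9.84 and 9.84 with sirEGFP and 9.54, 9.38 and 9.70 in Mock. Its oligo 1 values lay below those of oligo 2 and overlapped those of both controls. The difference of -0.60 ± 0.15 passed (adjusted p = 0.0403), and the call was lost without oligo 1 arrays 1 and 3 (0.141 and 0.111), oligo 2 arrays 1, 2 and 3 (0.0701, 0.124 and 0.161), sirEGFP array 2 (0.0535) or Mock array 1 (0.0603).

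Orc2, another core subunit of ORC, was low with both siRNAs. It stood at 8.81, 9.32 and 9.11 with oligo 1, 9.17, 9.15 and 9.08 with oligo 2, 9.56, 9.88 and 9.79 with sirEGFP and 9.33, 9.56 and 9.58 in Mock. All 6 arrays of the UBF siRNAs lay below all 6 control arrays, narrowly so for oligo 1 array 2 (9.32) and Mock array 1 (9.33). Against Mock it lay at -0.41 with oligo 1 and -0.35 with oligo 2, and neither passed. The siRNAs differed by -0.055 ± 0.14 (95% interval -0.35 to 0.24, adjusted p = 0.923). Of the other licensing genes, Orc1, Orc4, Orc5, Orc6 and Cdt1 did not pass the test between the siRNAs. The largest ORC subunit gene Orc1 differed by 0.062 (95% interval -0.22 to 0.35) and the loading factor gene Cdt1 by -0.076 (-0.52 to 0.37). Orc4, Orc5 and Orc6 lay at 0.19, 0.045 and -0.41.

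All 6 genes of the MCM2-7 ring, the core of the replicative helicase, had lower means with oligo 1 than with oligo 2, at a median of -0.72, and 3 of the 6 passed the test. Mcm4 stood at 9.05, 9.14 and 9.23 with oligo 1, 9.86, 9.94 and 9.80 with oligo 2, 9.84, 9.78 and 9.74 with sirEGFP and 9.44, 9.41 and 9.72 in Mock. Mcm6 stood at 9.96, 9.70 and 9.81 with oligo 1, 10.46, 10.55 and 10.41 with oligo 2, 10.43, 10.57 and 10.40 with sirEGFP and 10.08, 10.27 and 10.43 in Mock. In both genes the 3 oligo 1 values lay below all 9 other arrays, and the differences were -0.72 ± 0.12 for Mcm4 (adjusted p = 0.00245) and -0.65 ± 0.12 for Mcm6 (adjusted p = 0.00708). Mcm2 had the lowest difference of the 47 genes and a wide spread, at 7.90, 6.53 and 7.34 with oligo 1, 8.88, 8.43 and 8.32 with oligo 2, 8.40, 7.73 and 7.53 with sirEGFP and 8.26, 8.48 and 8.23 in Mock. Its oligo 1 values lay below all oligo 2 and Mock values and overlapped those of sirEGFP. It fell by 1.29 (SE 0.28, adjusted p = 0.0186), and the call was lost without oligo 1 array 3 (0.0618) or oligo 2 arrays 1 and 2 (0.0922 and 0.0574).

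Mcm3, Mcm5 and Mcm7 did not pass between the siRNAs, with differences of -0.84, -0.61 and -0.71 (adjusted p = 0.0739, 0.214 and 0.0844). Their oligo 1 arrays were far apart. Mcm3 stood at 9.14, 8.02 and 8.56 with oligo 1 against 9.57, 9.33 and 9.32 with oligo 2, and Mcm7 at 8.88, 8.19 and 8.65 against 9.52, 9.15 and 9.19. In Mcm3, Mcm5 and Mcm7 alike all 3 oligo 1 values lay below all 3 oligo 2 values. The intervals of these differences, -1.35 to -0.32 for Mcm3, -1.11 to -0.11 for Mcm5 and -1.17 to -0.26 for Mcm7, reach as low as the values of the members that passed. With the replicate block all 3 passed, Mcm3 at an adjusted p of 0.0321, Mcm5 of 0.04 and Mcm7 of 0.0212.

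Of the 6 genes that act in turning the loaded ring into a moving helicase, 4 fell in oligo 1 against oligo 2, at a median of -0.63. Gins1, a subunit of the GINS complex, stood at 7.76, 7.82 and 7.81 with oligo 1, 8.45, 8.19 and 8.48 with oligo 2, 8.64, 8.70 and 8.82 with sirEGFP and 8.59, 8.80 and 8.61 in Mock. Its oligo 1 values were the 3 lowest and lay within 0.1 of each other, and oligo 2 lay below all 6 control arrays in turn. The difference between the siRNAs was -0.57 ± 0.12 (adjusted p = 0.0124), and the call was lost without oligo 2 arrays 1 and 3 (0.0571 and 0.0693). Gins3, of the same complex, stood at 6.83, 6.67 and 6.82 with oligo 1, 7.60, 7.16 and 7.61 with oligo 2, 7.37, 7.48 and 7.35 with sirEGFP and 7.26, 7.22 and 7.53 in Mock. Oligo 1 was again below every other array, with a difference of -0.69 ± 0.14 (adjusted p = 0.0117) that no longer passed without oligo 2 arrays 1 and 3 (0.0583 and 0.0683).

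Mcm10, which helps to activate the helicase, stood at 7.73, 7.40 and 7.36 with oligo 1, 8.35, 8.06 and 8.15 with oligo 2, 8.18, 8.04 and 7.78 with sirEGFP and 7.97, 7.86 and 8.04 in Mock. The difference was -0.69 ± 0.14 (adjusted p = 0.0116), lost without oligo 1 array 3 (0.0653) or oligo 2 array 1 (0.0587). Cdc45, the third part of the active helicase beside MCM and GINS, stood at 8.19, 7.65 and 8.05 with oligo 1, 8.93, 8.38 and 8.66 with oligo 2, 8.93, 8.53 and 8.37 with sirEGFP and 8.49, 8.52 and 8.64 in Mock. Both genes had their 3 lowest values with oligo 1. Cdc45 fell by 0.69 (SE 0.18, adjusted p = 0.0435), close to the threshold, and the call ended without oligo 1 arrays 2 and 3 (0.126 and 0.097), oligo 2 arrays 1 and 3 (0.187 and 0.137), sirEGFP array 2 (0.0626) or Mock arrays 1, 2 and 3 (0.0644, 0.0609 and 0.0607). Gins2 and Gins4 did not pass, at -0.30 (95% interval -0.97 to 0.37) and -0.23 (-0.46 to 0.0072).

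**Figure D3:**
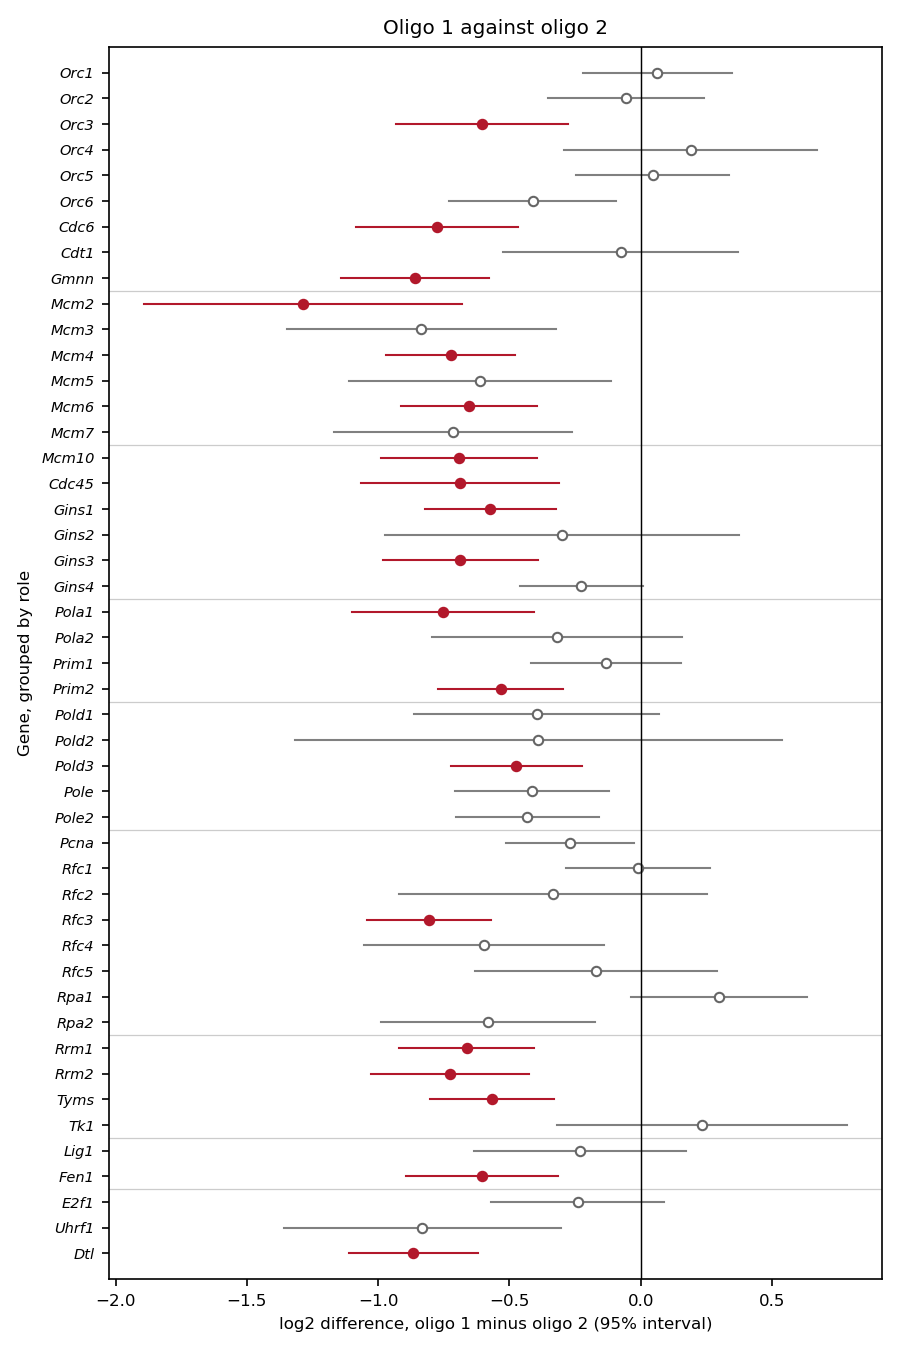
Log2 difference of each gene between oligo 1 and oligo 2 (x axis, oligo 1 minus oligo 2) with its 95% interval from limma (lines), for the 47 genes grouped by role (rows). Filled points are the 19 genes called at an adjusted p under 0.05, all to the left of 0, and open points the 28 that were not called.

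Primer synthesis divided evenly. Of 4 genes of polymerase alpha and primase, 2 fell, at a median of -0.43. Pola1, the catalytic subunit of polymerase alpha, stood at 8.29, 8.82 and 8.79 with oligo 1, 9.25, 9.42 and 9.49 with oligo 2, 9.56, 9.60 and 9.65 with sirEGFP and 9.09, 8.96 and 9.52 in Mock. The 3 lowest values were those of oligo 1, with array 1 well below arrays 2 and 3. It fell by 0.75 (SE 0.16, adjusted p = 0.017), a call lost without oligo 1 array 1 (0.0588) or oligo 2 arrays 2 and 3 (0.0678 and 0.084). Prim2, the large primase subunit, stood at 7.68, 7.71 and 7.62 with oligo 1, 8.31, 8.10 and 8.20 with oligo 2, 8.14, 8.36 and 8.14 with sirEGFP and 8.26, 8.42 and 8.38 in Mock. Its 3 oligo 1 values were close together and below all other arrays, with a difference of -0.53 ± 0.11 (adjusted p = 0.0139) that was lost without oligo 1 array 3 (0.0664) or oligo 2 arrays 1 and 3 (0.071 and 0.0569). Prim1, the catalytic primase subunit, lay at -0.13 (95% interval -0.42 to 0.15) and Pola2, the second subunit of polymerase alpha, at -0.32 (-0.79 to 0.16), and neither passed.

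The 5 genes of polymerases delta and epsilon all lay between -0.47 and -0.39, and 1 of them passed. Pold3, an accessory subunit of polymerase delta, stood at 7.42, 7.45 and 7.33 with oligo 1, 8.08, 7.81 and 7.72 with oligo 2, 8.14, 8.06 and 7.99 with sirEGFP and 7.87, 7.83 and 7.97 in Mock. Oligo 1 was below every other array, and the difference was -0.47 ± 0.12 (adjusted p = 0.0357). The call was lost without oligo 1 arrays 1 and 3 (0.0724 and 0.143), oligo 2 arrays 1, 2 and 3 (0.164, 0.0785 and 0.0509), sirEGFP array 2 (0.054) or Mock array 1 (0.0522). Pole2, the second subunit of polymerase epsilon, stood at 8.18, 8.54 and 8.31 with oligo 1, 8.73, 8.77 and 8.81 with oligo 2, 8.67, 8.97 and 8.93 with sirEGFP and 8.81, 8.59 and 8.82 in Mock. Its oligo 1 values were the 3 lowest, but the difference from oligo 2 did not pass (-0.43 ± 0.13, adjusted p = 0.0815). Pole, the catalytic subunit of epsilon, lay at -0.41 and Pold1, that of delta, at -0.40. Pold2 had the widest spread of the 47, with a pooled SD within groups of 0.71 against a median of 0.18 for the 47, and stood at 9.58, 7.65 and 8.55 with oligo 1, 9.52, 8.65 and 8.78 with oligo 2, 9.56, 8.63 and 7.93 with sirEGFP and 9.12, 9.70 and 8.88 in Mock. In each group its values overlapped those of the others, and its difference of -0.39 has an interval of -1.32 to 0.54.

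Of the 8 genes of the clamp, its loader and the single-strand binding protein, 1 fell, at a median of -0.30. Rfc3, a subunit of the clamp loader, stood at 9.12, 9.17 and 9.25 with oligo 1, 10.06, 9.81 and 10.08 with oligo 2, 9.82, 9.71 and 9.74 with sirEGFP and 9.87, 9.88 and 9.81 in Mock. It fell by 0.80, or by 42.8% (SE 0.11, adjusted p = 0.00102), with oligo 1 below all 9 other arrays. Its partners Rfc1, Rfc2, Rfc4 and Rfc5 did not pass, at -0.01, -0.33, -0.60 and -0.17. The interval of Rfc1, the large subunit, was -0.29 to 0.26. Pcna, the clamp, lay at -0.27 (95% interval -0.51 to -0.024), with 12.08, 12.42 and 12.27 on the oligo 1 arrays against 12.47, 12.54 and 12.56 with oligo 2. A second probe set of Pcna gave nearly the same values, with a difference of -0.26. Rpa2, of the single-strand binding protein, had all oligo 1 values below all other arrays (7.48, 6.83 and 7.31) and did not pass (-0.58, adjusted p = 0.124). With the replicate block Rpa2 and Rfc4 passed (adjusted p = 0.0417 for each).

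Rpa1, the large subunit of the single-strand binding protein, had its lowest mean with oligo 2. It stood at 9.29, 8.64 and 8.99 with oligo 1, 8.72, 8.70 and 8.60 with oligo 2, 9.47, 9.35 and 9.01 with sirEGFP and 9.43, 9.36 and 9.30 in Mock. All oligo 2 values lay below all 6 control arrays, while the oligo 1 values overlapped those of oligo 2 and sirEGFP and lay below those of Mock. The difference between the siRNAs was 0.30 ± 0.16 and did not pass (adjusted p = 0.425).

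Nucleotide supply fell in 3 of its 4 genes. Rrm1, the large subunit of ribonucleotide reductase, stood at 10.29, 10.06 and 10.03 with oligo 1, 10.74, 10.89 and 10.75 with oligo 2, 10.83, 10.91 and 10.75 with sirEGFP and 10.55, 10.78 and 10.84 in Mock. Rrm2, the small subunit of the same enzyme, stood at 10.11, 9.69 and 10.07 with oligo 1, 10.76, 10.56 and 10.72 with oligo 2, 10.20, 10.39 and 10.37 with sirEGFP and 10.12, 10.48 and 10.46 in Mock. In both the 3 oligo 1 values lay below all 9 others, narrowly so in Rrm2 for oligo 1 array 1 (10.11) and Mock array 1 (10.12). The differences between the siRNAs were -0.66 ± 0.12 for Rrm1 (adjusted p = 0.00632) and -0.73 ± 0.14 for Rrm2 (adjusted p = 0.00918). Tyms, thymidylate synthase, stood at 9.10, 9.23 and 9.29 with oligo 1, 9.80, 9.77 and 9.75 with oligo 2, 9.61, 9.86 and 9.74 with sirEGFP and 9.91, 9.78 and 9.75 in Mock. It too was lowest on the oligo 1 arrays, with a difference of -0.57 ± 0.11 from oligo 2 (adjusted p = 0.00944). Tk1, the thymidine kinase of the salvage pathway, lay at 0.23 and did not pass (95% interval -0.32 to 0.79). Its 2 probe sets went different ways in this comparison, the second at -0.0995.

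Of the enzymes that finish Okazaki fragments, Fen1, the flap endonuclease, stood at 7.08, 6.72 and 6.70 with oligo 1, 7.50, 7.60 and 7.21 with oligo 2, 7.24, 7.32 and 7.17 with sirEGFP and 7.22, 7.26 and 7.09 in Mock. Its oligo 1 values lay below all others, narrowly so for oligo 1 array 1 (7.08) and Mock array 3 (7.09). Fen1 fell by 0.60 in oligo 1 against oligo 2 (SE 0.14, adjusted p = 0.0201). The call ended without oligo 1 arrays 2 and 3 (0.0545 and 0.103) or oligo 2 arrays 1 and 2 (0.0816 and 0.1). Against sirEGFP and Mock it lay at -0.41 and -0.36 with oligo 1 and at 0.20 and 0.25 with oligo 2, and none of these passed. Lig1, the ligase that seals the fragments, lay at -0.23 (95% interval -0.64 to 0.17).

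Of the 3 regulators, Dtl passed. It encodes the substrate receptor of a ubiquitin ligase that removes Cdt1 in S phase, and stood at 7.97, 7.89 and 7.81 with oligo 1, 8.81, 8.62 and 8.84 with oligo 2, 8.72, 8.66 and 8.58 with sirEGFP and 8.36, 8.27 and 8.54 in Mock. Every oligo 1 value was below every other array, and the oligo 2 values lay above all Mock values. Dtl fell by 0.87, or by 45.1%, in oligo 1 against oligo 2 (SE 0.12, adjusted p = 0.000937), the smallest p of the 47. Uhrf1, which reads hemimethylated DNA behind the fork, lay at -0.83 and did not pass (adjusted p = 0.0844, or 0.00881 with the replicate block), at 8.71, 8.09 and 8.44 with oligo 1 and 9.62, 9.05 and 9.06 with oligo 2. E2f1, an activating E2F, lay at -0.24 (95% interval -0.57 to 0.091).

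**Figure D4:**
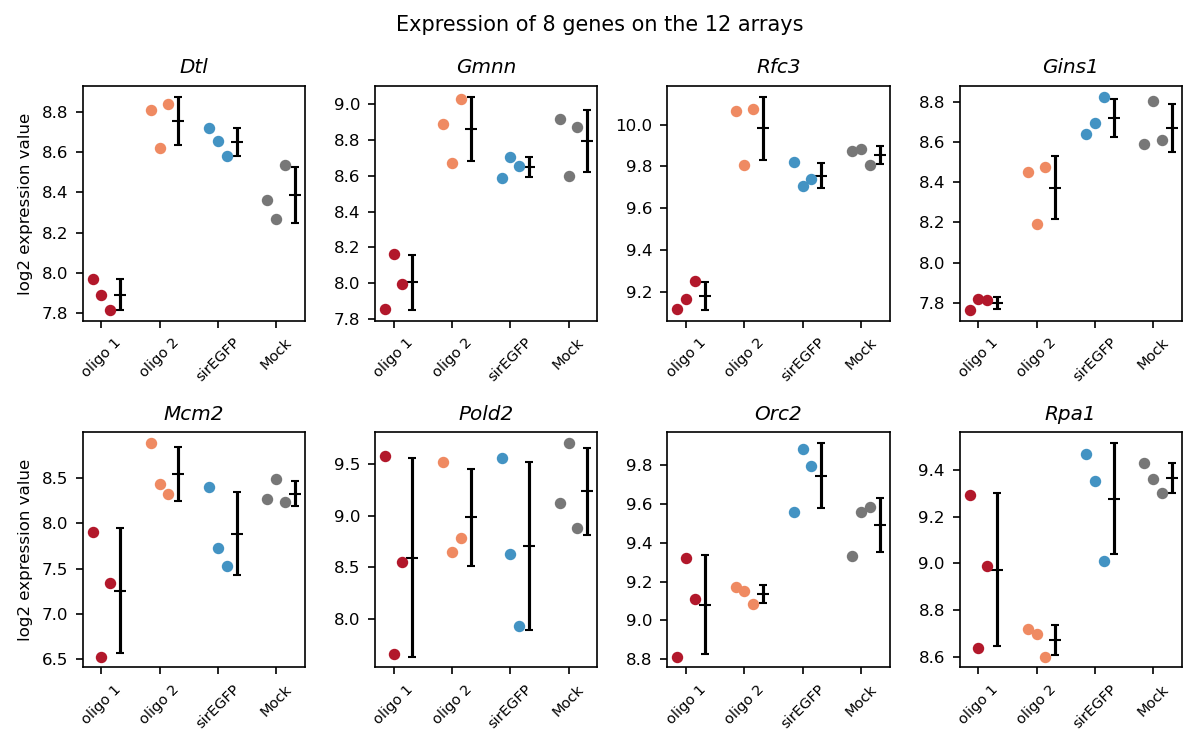
Log2 expression value on each array (points) of 8 genes, with the group mean and SD (bars, n = 3). Each panel has its own y axis. Dtl, Gmnn, Rfc3 and Gins1 have their 3 lowest values with oligo 1, Mcm2 and Pold2 are widely spread over the oligo 1 arrays, Orc2 is low with both UBF siRNAs, and Rpa1 is lowest with oligo 2.

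The spread between the oligo 1 arrays was itself uneven among the 47 genes. On oligo 1 array 1, 17 of the 47 (36.2%) stood over 0.5 above oligo 1 array 2, against 11.6% of all genes, among them Mcm2, Mcm3, Mcm5, Mcm7, Gins2, Pold2 and Rfc2. Another 6 (12.8%, against 8.47% of all genes) stood over 0.5 lower, which were Orc2, Orc3, Orc4, Orc6, Pola1 and Rfc4. Between sirEGFP arrays 1 and 3, 14 of the 47 (29.8%, against 8.11%) were over 0.5 higher on array 1, and Orc4 and Rfc4 were over 0.5 lower. Mcm2, Mcm3, Mcm5, Mcm7, Gins2, Pold2 and Rfc2 were among these 14 as well. The part of this axis in the differences between groups was not tested beyond the values given without the 3 arrays.

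Against sirEGFP, 15 of the 47 genes fell with oligo 1 and 0 rose, where 1.43% of all genes were called lower and 1.04% higher. The median was -0.47, against 0.022 over all genes, and 23 of the 47 had all oligo 1 values below all sirEGFP values, as in 7.18% of all genes (the opposite order was found in 0, and in 8.33% of all genes). With oligo 2 against the same sirEGFP arrays 1 of the 47 fell and 0 rose, where 0.742% of all genes were called lower and 1.52% higher, and the median was 0.037. With oligo 2, 4 of the 47 (Orc2, Gins1, Pola1 and Rpa1) had all values below sirEGFP, an order of 8.62% of all genes, and 1 (Rrm2) had all values above, an order of 9.83%. Both comparisons use the same 3 sirEGFP arrays, and the test of oligo 1 against oligo 2 given above is the test of the difference between them. The lowest values with oligo 1 were those of Pola1 and Gins1. Pola1 fell by 0.97 with oligo 1 (adjusted p = 0.00543) and lay at -0.22 with oligo 2 (0.664). Gins1 fell by 0.92 with oligo 1 (0.00116) and lay at -0.35 with oligo 2 (0.17). Dtl fell by 0.76 with oligo 1 (0.00309) against 0.10 with oligo 2, and Rrm1 by 0.70 (0.00644) against -0.038. Pold3, Mcm4 and Rfc3 fell by 0.67, 0.65 and 0.58 with oligo 1 (0.00729, 0.00767 and 0.0116) and lay at -0.19, 0.077 and 0.23 with oligo 2. These 7 calls were kept whichever array was left out.

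The other 8 calls with oligo 1 against sirEGFP depended on single arrays. Cdc6 fell by 0.68 (adjusted p = 0.0228) and was lost without oligo 1 arrays 1 and 3 (0.0758 and 0.0912) or sirEGFP arrays 1, 2 and 3 (0.0639, 0.0522 and 0.0535). Orc2 fell by 0.66 (0.0208), lost without oligo 1 arrays 1 and 3 (0.0868 and 0.0695) or sirEGFP arrays 2 and 3 (0.119 and 0.0879). Gmnn fell by 0.65 (0.0169), lost without oligo 1 arrays 1 and 3 (0.0727 and 0.0689) or sirEGFP arrays 2 and 3 (0.0866 and 0.0674), and Mcm6 by 0.65 (0.0105), lost without sirEGFP array 2 (0.0693). In these 4 genes, and in Gins3, Prim2, Tyms and Pole2 as well, the oligo 1 arrays nevertheless all lay below all 3 sirEGFP arrays. Gins3 fell by 0.63 (0.0268), lost without oligo 1 arrays 1 and 3 (0.0553 and 0.0786) or sirEGFP arrays 2 and 3 (0.128 and 0.0745). Prim2 fell by 0.55 (0.0173), lost without oligo 1 arrays 1 and 3 (0.0507 and 0.0795) or sirEGFP array 2 (0.108), and Tyms by 0.53 (0.0193), lost without oligo 1 array 1 (0.0807) or sirEGFP arrays 2 and 3 (0.116 and 0.0756). Pole2 had the weakest call, at -0.52 (0.0456), and was lost without oligo 1 arrays 1 and 3 (0.181 and 0.158), oligo 2 arrays 1, 2 and 3 (0.0627, 0.0632 and 0.0693), sirEGFP arrays 2 and 3 (0.217 and 0.179) or Mock arrays 1 and 3 (0.0645 and 0.0595). The count of 15 became 9 without oligo 1 array 1, 9 without oligo 1 array 3, 7 without sirEGFP array 2 and 9 without sirEGFP array 3. Without the 3 outlying arrays the median was -0.39, all 15 stayed below 0, and 3 genes were called, of which Gins1 and Dtl belong to the 15 and Rfc4 does not.

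The 1 gene called with oligo 2 against sirEGFP was Orc2, at -0.61 ± 0.14 (adjusted p = 0.0343), and it was lost without oligo 1 array 3 (0.0558), oligo 2 arrays 1, 2 and 3 (0.1, 0.0933 and 0.129) or sirEGFP arrays 2 and 3 (0.162 and 0.136). The count of 1 became 2 without oligo 1 array 1 or oligo 1 array 2. Rpa1 came close with oligo 2, at -0.60 ± 0.16 (adjusted p = 0.0622), passed with the replicate block (0.0248), and lay at -0.30 with oligo 1. Several helicase and nucleotide genes lay above sirEGFP with oligo 2 without passing, such as Mcm2 at 0.66 (adjusted p = 0.329), Mcm7 at 0.44 (0.406) and Rrm2 at 0.36 (0.261). Without the 3 outlying arrays, which removes sirEGFP array 1 here, Mcm2, Mcm7 and Uhrf1 lay at 0.91, 0.68 and 0.71 with oligo 2. Rpa1 lay at -0.51 and Orc2 at -0.70. Mcm2, Mcm7 and Uhrf1 all stood over 0.5 higher on sirEGFP array 1 than on array 3, so leaving array 1 out raises their differences. Oligo 2 array 1, toward the same end of the axis (score -14.7), was kept. These higher values are therefore no separate evidence of a rise with oligo 2.

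**Figure D5:**
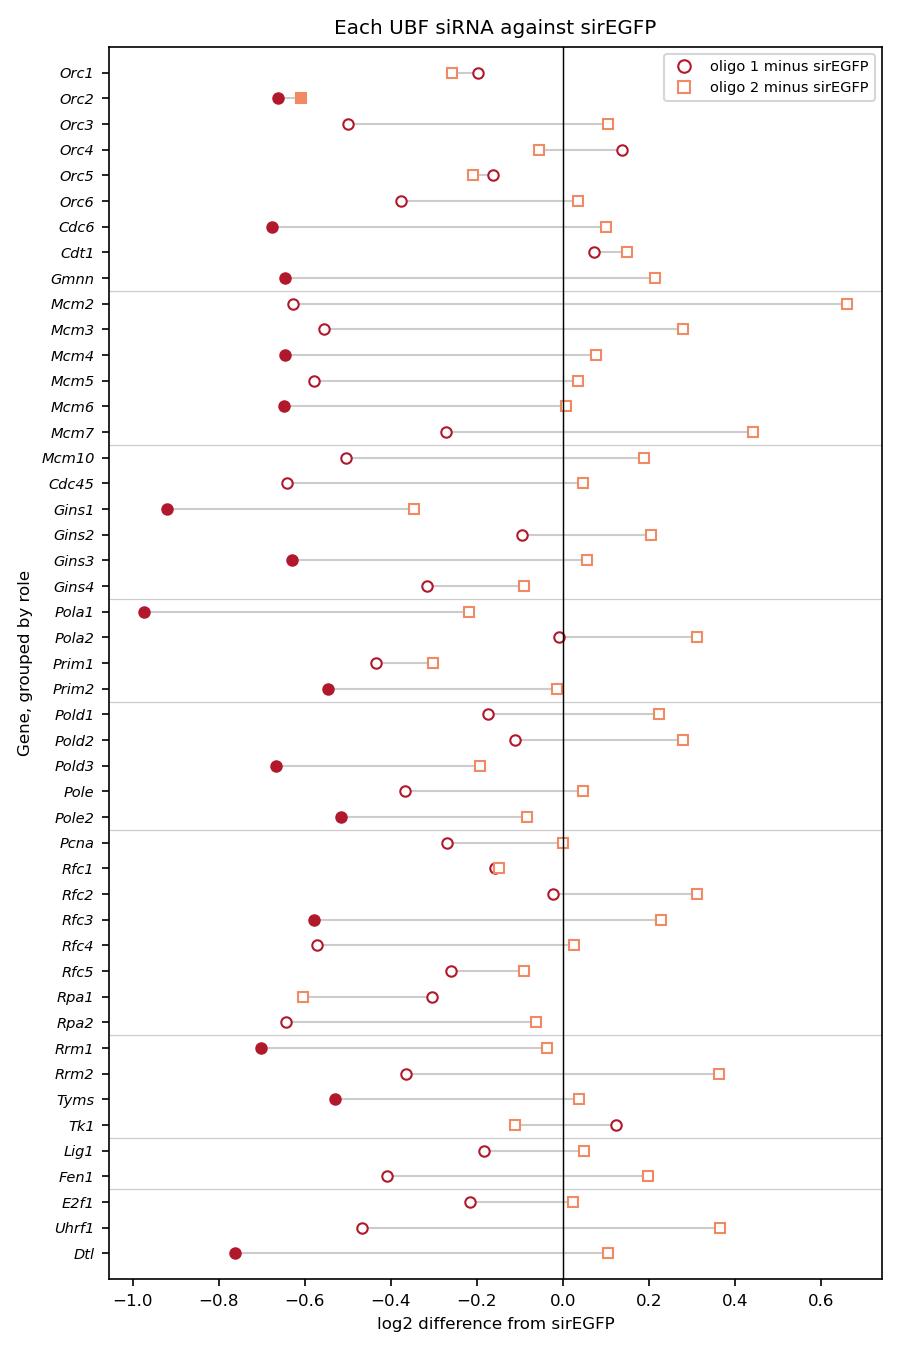
Log2 difference from sirEGFP of each of the 47 genes (rows, grouped by role) with oligo 1 (circles) and oligo 2 (squares), joined by a grey line. Filled symbols passed limma's test at an adjusted p under 0.05, which are 15 circles, all left of 0, and 1 square, that of Orc2. Both sets of differences use the same 3 sirEGFP arrays.

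Against Mock, which received no siRNA, 10 of the 47 fell with oligo 1 and 0 rose, where 1.4% of all genes were called lower and 1.35% higher, at a median of -0.48 against 0.043 over all genes. For 29 of the 47 all oligo 1 values lay below all Mock values, as in 6.17% of all genes, and for 0 above, as in 10.3% of all genes. Gins1 fell by 0.87 (adjusted p = 0.00148), Gmnn by 0.79 (0.00433), Prim2 by 0.68 (0.00393), Rfc3 by 0.68 (0.00394) and Tyms by 0.60 (0.00737), and these 5 were kept whichever array was left out. Pole was called in this comparison and not against sirEGFP or oligo 2. It stood at 8.05, 7.55 and 7.82 with oligo 1, 8.17, 8.19 and 8.29 with oligo 2, 8.28, 8.04 and 8.20 with sirEGFP and 8.55, 8.25 and 8.49 in Mock, with the oligo 1 values below all Mock and all oligo 2 values. It fell by 0.63 against Mock (0.0221), lost without oligo 1 arrays 2 and 3 (0.0653 and 0.0799) or Mock arrays 1 and 3 (0.105 and 0.0797). Rrm1 fell by 0.59 (0.0142), lost without oligo 1 array 3 (0.0787) or Mock arrays 2 and 3 (0.0646 and 0.0662). Dtl fell by 0.50 (0.0297), lost without oligo 1 arrays 2 and 3 (0.0548 and 0.141) or Mock arrays 1 and 3 (0.0837 and 0.119). Gins3 fell by 0.57 (0.0402), lost without oligo 1 arrays 1, 2 and 3 (0.0697, 0.094 and 0.113), oligo 2 array 3 (0.0504), sirEGFP arrays 2 and 3 (0.0577 and 0.0543) or Mock arrays 1, 2 and 3 (0.0895, 0.0709 and 0.165). Pold3 fell by 0.49 (0.0345), lost without oligo 1 arrays 1 and 3 (0.0733 and 0.154), sirEGFP array 2 (0.0534) or Mock arrays 1, 2 and 3 (0.0965, 0.0769 and 0.118). The count of 10 became 5 without oligo 1 array 3, 6 without Mock array 1 and 5 without Mock array 3. Without the 3 outlying arrays it was 1, Gins1 at -0.85, with a median of -0.49.

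With oligo 2 against Mock, 1 of the 47 fell and 0 rose, where 1.32% of all genes were called lower and 2.93% higher, and the median was 0.0038. All oligo 2 values lay below all Mock values for 5 of the 47 (Orc2, Gins1, Prim1, Rpa1 and Tk1), an order of 8.56% of all genes, and above for 7 (Cdc6, Mcm3, Mcm4, Mcm10, Rrm2, Uhrf1 and Dtl), an order of 13.1%. The called gene was Rpa1, at -0.69 ± 0.16 (adjusted p = 0.0225), lost without oligo 2 arrays 1, 2 and 3 (0.0571, 0.0683 and 0.0959) or Mock arrays 1 and 2 (0.0997 and 0.0747). The count of 1 became 2 without oligo 1 array 1, oligo 1 array 2 or sirEGFP array 1. Rpa1 was called lower without the 3 outlying arrays too. Tk1 had the lowest value here, at -0.89 ± 0.26 (0.0719), which did not pass, and was called without those 3 arrays (-0.89).

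Between the 2 controls, sirEGFP and Mock, limma called 0 of the 47 and 0 of all genes, with 2 members lower (Pola2 and Tk1) and 3 higher (Mcm4, Pola1 and Dtl) at an unadjusted p under 0.05. The sirEGFP values all lay below the Mock values for 1 of the 47 (Rfc5), an order of 3.87% of all genes, and above for 5 (Cdc6, Mcm4, Pola1, Pold3 and Dtl), an order of 6.86%. The median of the 47 was 0.021, against 0.018 over all genes. Tk1 had the smallest p, at -0.78 ± 0.26 (adjusted p = 0.714). It stood at 9.02, 8.16 and 8.76 with oligo 1, 8.72, 8.19 and 8.33 with oligo 2, 9.15, 8.25 and 8.18 with sirEGFP and 9.54, 9.36 and 9.01 in Mock. The Mock values were high, and those of the 3 groups with siRNA overlapped each other and, on oligo 1 array 1 and sirEGFP array 1, Mock. Its second probe set lay at -0.68 in sirEGFP against Mock, -0.80 in oligo 2 against Mock and -0.90 in oligo 1 against Mock.

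Other genes of the same pathway moved in the same comparisons. Of 49 listed, 47 were measured, and 15 of these fell in oligo 1 against oligo 2 and 0 rose, at a median of -0.44. Of all genes 2.3% were called lower and 1.37% higher in that comparison. Ticrr, which recruits Cdc45 to the loaded helicase, fell by 0.90 (adjusted p = 0.0017), Dut, which removes dUTP, by 0.73 (0.00276), Rbl1, a relative of the retinoblastoma protein, by 0.65 (0.00392) and Hells, a chromatin remodeller, by 0.67 (0.0117). Against sirEGFP 15 of the 47 fell with oligo 1 and 0 with oligo 2, and 0 rose with either. The shares of all genes called lower were 1.43% with oligo 1 and 0.742% with oligo 2. Against Mock 8 fell with oligo 1, where 1.4% of all genes were called lower. With oligo 2 against Mock Cdc25a (0.69), Msh6 (0.58) and Top1 (0.47) rose, 6.38% of the list against 2.93% of all genes. The mean level of these 47 genes was -0.25, -0.31 and -0.28 on the oligo 1 arrays, and between 0.016 and 0.19 on the other 9.

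Genes of G2/M and mitosis, a later stage of the cycle, were low on the same arrays. Of 30 listed, 29 were measured, and 9 of them (31%, against 2.3% of all genes) fell in oligo 1 against oligo 2, at a median of -0.47, with 0 higher. In oligo 1 against the controls more of them fell, 15 of the 29 against sirEGFP at a median of -0.65 and 19 of the 29 against Mock at a median of -0.71, where 15 and 10 of the 47 replication and G1/S genes fell. Of all genes 1.43% and 1.4% were called lower in these comparisons. The difference between the lists was not tested. Their mean level was -0.40, -0.46 and -0.48 on the oligo 1 arrays and between 0.0074 and 0.049 with oligo 2, below all sirEGFP and Mock arrays, which lay between 0.052 and 0.36. In oligo 2 against Mock 2 of the 29 fell, Birc5 (-0.59, adjusted p = 0.00697) and Nusap1 (-0.52, 0.0492), at a median of -0.22. Of all genes 1.32% were called lower there. With oligo 2 against sirEGFP 0 of the 29 were called, at a median of -0.082. The control siRNA also lay below Mock, at a median of -0.090 with 22 of the 29 below 0 and 0 called. The mean of the 47 replication and G1/S genes did not have the order of the G2/M means, since its oligo 2 values overlapped those of both controls. The G2/M order was itself narrow between oligo 2 array 2 (0.049) and sirEGFP array 3 (0.052). The part of the cells' distribution over the cycle in these results was not tested.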

How the data were processed

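The labels describe 100 ng of total RNA per sample, made into 2.5 µg of biotin-labelled cDNA with the NuGen Applause WT-Amp ST system. The authors deposited 1 table of log2 expression values for 35512 probe sets on the 12 arrays. That the values are log2 was read from their range. The submitters' processing notes name limma without a step, and how probes were summarised, background-corrected and normalized is not given in the sources used here. Of the probe sets, 21789 carried 1 gene symbol, 1621 several and 12102 none in GEO's platform annotation, and 21698 of those with 1 symbol were matched to RefSeq genes through Entrez identifiers. The probe set with the highest mean was used for the 999 genes with several, among them Pcna and Tk1, which left 19938 genes.

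Values were used as deposited. All 12 arrays were fitted in 1 model with a mean per group and 8 residual degrees of freedom with the lmFit and eBayes functions of limma 3.58.1 under R 4.3.3. The p-values were adjusted over all 19938 genes with the Benjamini-Hochberg method for each of 6 comparisons, and called at 0.05. The number of arrays limits the precision. The labels give no meaning to replicate numbers, so pairing was checked on the arrays' deviations from their group means. All 3 pairs of arrays with the same number correlated above 0.1 between oligo 1 and oligo 2 (0.12 to 0.39) and between oligo 2 and sirEGFP (0.18 to 0.55), and the fit with the number as a block is given beside those comparisons where it changed a call. In the other 4 comparisons 1 or 2 of 3 pairs did. Over all groups the pairs with the same number ran from -0.24 to 0.55. Those with different numbers ran from -0.62 to 0.49, so the 2 ranges overlap. The test was tried on simulated data for oligo 1 against oligo 2 with 19938 genes, and called 31% of 100 genes lowered by 0.58 and 85% of 100 genes lowered by 1 on the log2 scale, with 8 unchanged genes called.

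Members and lists were chosen with earlier results of these data known. Values on every array were to be given for members called between the siRNAs or against sirEGFP, and the 4 other pathway genes with the smallest p between the siRNAs were to be named. The array values of Rpa1, Rpa2, Pold2, Pole, Tk1, Pcna, Mcm3, Mcm7 and Uhrf1, and the names Cdc25a, Msh6, Top1, Birc5, Nusap1, Csf1r, Cd68 and Cdh5, were chosen after their values were seen. A few genes of the other lists were not analysed here. The alternatives were centred or quantile-normalized arrays, no dim genes, the mean of a gene's probe sets, only the groups compared, a replicate block, array weights, a trended prior, and arrays left out. Promoter sequences are those of RefSeq, and 8 members had no entry.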

Additional observations from a re-analysis of the deposited data

Results flagged for a closer look

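For 19 of the 47 genes the effects of the 2 siRNAs against UBF differed from each other, by the limma test of oligo 1 against oligo 2 itself and with the same control arrays cancelling out. Of these 19 calls, 9 were kept whichever single array was left out and 10 were lost without some array. Only Gmnn and Dtl passed under every alternative. The log2 differences, oligo 1 minus oligo 2, were lowest for Mcm2 at -1.29, for Dtl at -0.87, for Gmnn at -0.86 and for Rfc3 at -0.80. Of the other licensing and helicase genes, Cdc6 lay at -0.78, Mcm4 at -0.72, Mcm10 at -0.69, Cdc45 at -0.69, Gins3 at -0.69, Mcm6 at -0.65, Orc3 at -0.60 and Gins1 at -0.57. Of the genes of synthesis, Pola1 lay at -0.75, Rrm2 at -0.73, Rrm1 at -0.66, Fen1 at -0.60, Tyms at -0.57, Prim2 at -0.53 and Pold3 at -0.47. All 3 oligo 1 values lay below all 3 oligo 2 values in each of the 19. For 6 of them (Orc3, Mcm2, Mcm10, Cdc45, Rrm2 and Fen1) oligo 1 was called lower against neither control. Ubtf itself lay at 0.052 in the same comparison, with a 95% interval of -0.30 to 0.40.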

How the results depend on the processing

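All 46 calls of single members kept their direction under the 21 alternatives, and of their 966 values 788 still passed and 178 did not. Between the siRNAs Gmnn and Dtl passed under every alternative, as did Gins1 and Dtl in oligo 1 against sirEGFP and Gins1 in oligo 1 against Mock. The counts depended on the fit more than the directions. The share of all genes called under each alternative is not given here, so these counts do not separate the members from all genes. In oligo 1 against oligo 2, 19 members were lower, against 11 when only the 6 arrays compared were fitted, 32 (and 1 higher) with array weights and 4 without the 3 outlying arrays. In oligo 1 against sirEGFP, 15 were lower, against 4, 28 and 3 under the same settings. In oligo 1 against Mock, 10 were lower, against 5, 32 and 1, and 16 with quantile normalization. In oligo 2 against sirEGFP, 1 was lower, against 2 with array weights. The values of this comparison without the 3 arrays are given above. In oligo 2 against Mock, 1 was lower, against 2 with quantile normalization, with only the groups compared, with array weights (and 1 higher) and without the 3 arrays. Array weights gave oligo 1 array 3 a weight of 8.92, against 0.42 to 1.67 for the others. Between sirEGFP and Mock 0 members passed under each alternative.

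With single arrays left out, the lower counts ranged from 10 to 22 in oligo 1 against oligo 2, from 7 to 19 in oligo 1 against sirEGFP, from 5 to 11 in oligo 1 against Mock, and from 0 to 2 in oligo 2 against sirEGFP and in oligo 2 against Mock. The median of the 47 in oligo 1 against sirEGFP ranged from -0.48 to -0.35, with -0.35 reached without oligo 1 array 2.

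With the replicate block 25 members were lower in oligo 1 against oligo 2, 19 in oligo 1 against sirEGFP, 19 in oligo 1 against Mock, and 2 each in oligo 2 against sirEGFP and in oligo 2 against Mock, and in each comparison these held all the members called without it. In the comparisons where only 1 or 2 of 3 pairs with the same number correlated above 0.1, the block added Orc3, Mcm10, Cdc45 and Rpa2 in oligo 1 against sirEGFP, 9 members in oligo 1 against Mock and Tk1 in oligo 2 against Mock. Over all groups 9 of 12 arrays correlated best with their own number, a hint from the data and not the design.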
